A study of Mus musculus with 12 samples.

Results

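The aminoacyl-tRNA synthetases load each amino acid onto its transfer RNA. The 35 enzymes described here were listed by mouse gene symbol: 19 that act in the cytosol, and 16 whose symbols end in 2 and that act inside mitochondria. All 35 were found among the 29522 genes of each library. All 35 also reached a mean of 1 FPKM in at least 1 group, the filter that left 13511 genes for testing. FPKM are fragments scaled to gene length and library size. Newer nomenclature adds a 1 to the cytosolic symbols, so that Aars becomes Aars1, and the list holds no cytosolic enzyme for methionine.

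The messenger RNA of mouse T helper 17 (Th17) cells was measured by RNA-seq in 12 libraries, 3 biological replicates in each of 4 groups. The groups were ILA at 200 uM, GSK805 at 0.5 uM, GSK805 with ILA at those doses, and vehicle. In every group the starting cells were naive CD4+ T cells from the spleens of wild-type C57BL/6J mice, kept in a medium that drives Th17 differentiation and activated with a CD3/CD28 cocktail. ILA, taken here to mean indole-3-lactic acid, is a product of bacterial tryptophan metabolism, and GSK805 is a compound known to block Th17 differentiation. No label ties a replicate to an animal, so each p-value reflects only how far these libraries spread.

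Cytosolic synthetases feed the ribosomes that make nearly all cell proteins, and several of them sit together in a multi-synthetase complex held by the scaffold proteins Aimp1, Aimp2 and Eef1e1. Mitochondrial synthetases are encoded in the nucleus, imported, and serve only the mitochondrial ribosomes. In mammals many cytosolic synthetase genes are known targets of ATF4, the transcription factor that is made when uncharged transfer RNA or other stress leads to phosphorylation of the initiation factor eIF2.

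Between 17.8 M and 23.4 M reads stood behind each library, recovered as whole reads from the deposited FPKM. A cytosolic enzyme had 1370 to 19708 reads in a library and a mitochondrial one 103 to 2182, so the mitochondrial values are the less precise. The CD4 T cell markers Cd3e, Cd3g, Cd4, Cd5 and Cd28 were present in every library. Their summed level was 399 to 412 FPKM with ILA, 238 to 248 with GSK805, 363 to 372 with both compounds and 217 to 222 with vehicle. The Th17 cytokine gene Il17a was at 153 to 173 FPKM with ILA, 97.7 to 122 with GSK805, 36.4 to 45.5 with both and 634 to 832 with vehicle. In these bulk samples a change in the number of cells of a type and a change in RNA per cell cannot be told apart.

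Cytosolic enzymes were far more abundant than mitochondrial ones. In vehicle cells the cytosolic means had a median of 53.0 FPKM and the mitochondrial means a median of 3.20 FPKM. Gars, the glycyl enzyme that serves both compartments from 1 gene, was the most abundant in every group, with 148 ± 6.46 FPKM with ILA, 199 ± 6.93 with GSK805, 154 ± 2.15 with both and 217 ± 8.25 with vehicle (SD, n = 3 each). Nars, Iars and Sars, for asparagine, isoleucine and serine, followed it in that order in all 4 groups. Dars, for aspartate, and Farsa, the alpha subunit of the phenylalanyl enzyme, stood at the low end, between 16.8 and 22.5 FPKM as group means. Among mitochondrial enzymes Tars2 and Hars2, for threonine and histidine, led at 11.3 to 13.9 FPKM, and Nars2 was lowest at 1.15 to 1.56 FPKM. Neighbours in this order can overlap between libraries, such as Hars2 at 11.98 ± 0.419 and Tars2 at 11.5 ± 0.152 FPKM in vehicle cells. Eprs, which joins the glutamyl and prolyl enzymes in 1 protein, was listed at 30.8 ± 1.49 FPKM in vehicle cells, but the exons behind that value add up to 18102 bases, so it stood on up to 13044 reads.

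**Figure D1:**
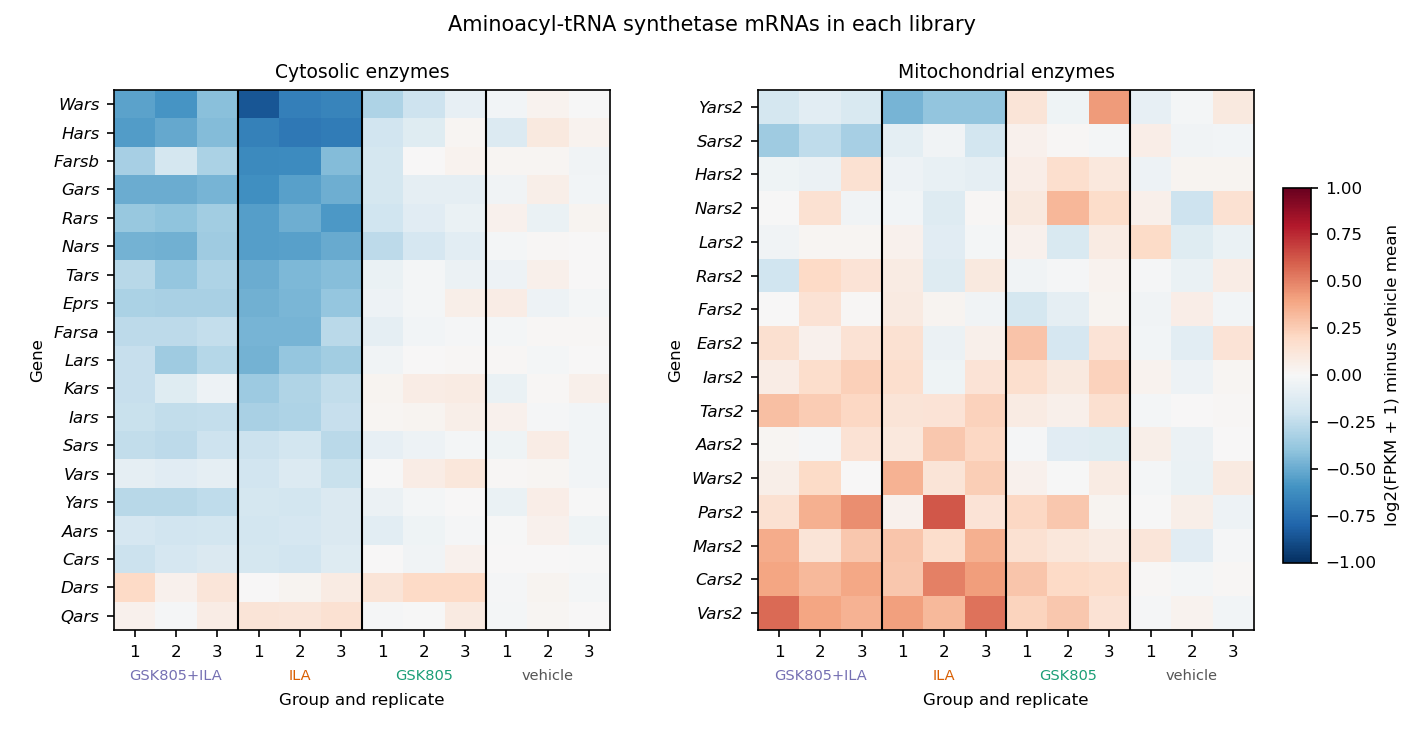
Level of each synthetase mRNA in each of the 12 libraries, as log2(FPKM + 1) minus the mean of the 3 vehicle libraries of that gene; rows are genes, columns are libraries by group and replicate, blue is lower and red higher than the vehicle mean. Most cytosolic rows are blue in all 6 libraries that received ILA, with Dars and Qars as exceptions, while the mitochondrial rows go in both directions.

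Promoters are shown for both classes, since the cytosolic genes moved together with ILA while the mitochondrial ones went in both directions. Whether a motif has a part in this was not tested. RefSeq promoters on GRCm38.p6, from 250 bases before the start site to 50 after it, were found for 12 of the 19 cytosolic and 14 of the 16 mitochondrial genes. Each was searched on both strands for TGATGNAA, the core of the C/EBP-ATF response element through which ATF4 acts, and for the E-box CACGTG, bound by Myc and related factors; neither motif holds the other. The response element core was found in 5 of the 12 cytosolic promoters (Aars, Gars, Iars, Tars and Yars) and in 0 of the 14 mitochondrial ones, against 4.51% of 27025 genes with a window of that length. The E-box was found in 4 of the 12 cytosolic promoters (Aars, Farsb, Iars and Tars), in 1 of the 14 mitochondrial ones (Ears2), and in 8.09% of all. Promoters of Wars, Hars, Rars, Nars, Lars, Vars and Cars were not searched, and the first 4 of these are among the 6 cytosolic enzymes with the largest falls under ILA, so the count leaves out genes that moved most. With ILA the cytosolic genes with the core had log2 fold changes of −0.55 (Gars), −0.46 (Tars), −0.29 (Iars), −0.17 (Yars) and −0.17 (Aars). The searched ones without it had −0.57 (Farsb), −0.44 (Eprs), −0.40 (Farsa), −0.30 (Kars), −0.22 (Sars), 0.04 (Dars) and 0.13 (Qars). A match is a run of letters and not a measured site, and a window without one says nothing of the factor. The stretches that follow are given 5′ to 3′ on the gene's strand, with the core in capitals. The first is Gars from 120 to 1 bases before its start, chr6:55037881-55038000, plus strand. The Tars stretch, 120 to 8 bases before its start, is chr15:11399666-11399778, minus strand. Short pieces around the core are given for Aars (chr8:111033722-111033744, plus), Iars (chr13:49682130-49682152, plus) and Yars (chr4:129189899-129189921, plus), where the last 2 lie at the start site itself. Vars2 and Sars2, a mitochondrial gene that rose and one that fell with both compounds, are given for contrast from 120 to 1 bases before their starts, at chr17:35667593-35667712, minus strand, and chr7:28741848-28741967, plus strand. Neither holds the core.
Gars: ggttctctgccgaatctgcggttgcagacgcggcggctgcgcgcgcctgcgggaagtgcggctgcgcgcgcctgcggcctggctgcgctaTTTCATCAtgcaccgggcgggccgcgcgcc
Tars: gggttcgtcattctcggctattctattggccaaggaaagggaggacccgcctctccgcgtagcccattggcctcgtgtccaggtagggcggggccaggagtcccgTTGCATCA
Aars: cttgagcaTTGCATCAgccgagc
Iars: gtcagtaTTGCATCAcctccaga
Yars: gctcagcTGATGCAAcccgacgg
Vars2: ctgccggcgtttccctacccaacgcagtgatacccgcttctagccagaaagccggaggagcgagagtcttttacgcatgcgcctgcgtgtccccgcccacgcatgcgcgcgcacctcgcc
Sars2: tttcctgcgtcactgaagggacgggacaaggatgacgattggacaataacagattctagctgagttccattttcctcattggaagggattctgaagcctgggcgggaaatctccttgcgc

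ILA lowered the cytosolic synthetases almost as a class. Against vehicle, 17 of the 19 fell, Qars rose and Dars did not pass (limma on log2(FPKM + 1), Benjamini-Hochberg adjusted p below 0.05 over all genes). Of all 13511 tested genes 57.9% passed, 24.0% with a fall and 33.9% with a rise. That balance depends on the scaling: 3236 genes fell and 4582 rose as given, 4723 fell and 3271 rose with median centring, and 4172 fell and 3590 rose with quantile normalization. The median log2 fold change of the 19 cytosolic enzymes was −0.40, against 0.06 over all tested genes. In the 17 cytosolic genes that fell every ILA library lay below every vehicle library. Of all genes 62.8% had groups without overlap in 1 direction or the other. The tryptophanyl enzyme Wars (ENSMUSG00000021266, chromosome 12, 108860030 to 108894174 on GRCm38) had 28.2, 31.9 and 32.4 FPKM with ILA, against 50.8, 52.9 and 51.6 FPKM with vehicle. No ILA library came near a vehicle one, and Wars was 1.66-fold lower (log2 −0.73, SE 0.07, limma adjusted p = 3.29e-06). Hars, for histidine (ENSMUSG00000001380, chromosome 18, 36766528 to 36783205), had 42.6, 41.5 and 42.0 FPKM with ILA, against 62.4, 73.5 and 70.5 FPKM with vehicle. Its vehicle libraries spread more than its ILA libraries, the groups stood apart, and it was 1.62-fold lower (limma adjusted p = 3.92e-06). Farsb, the beta subunit of the phenylalanyl enzyme (ENSMUSG00000026245, chromosome 1, 78417975 to 78488897), had 28.9, 29.2 and 33.5 FPKM with ILA, against 46.2, 46.3 and 44.4 FPKM with vehicle. It was 1.48-fold lower without overlap (limma adjusted p = 2.98e-05). In all, 16 of the 35 genes overlap another gene, and Farsb overlaps 3 in the annotation. Of these Sgpp2, on the opposite strand, shares the most bases with it, 2315, and averaged 1.79 ± 0.248 FPKM with ILA and 0.916 ± 0.336 FPKM with vehicle. Gars (ENSMUSG00000029777, chromosome 6, 55038007 to 55079500) had 141, 148 and 154 FPKM with ILA, against 212, 226 and 212 FPKM with vehicle. The most abundant enzyme was thus also among those with the largest falls, 1.46-fold lower (limma adjusted p = 6.62e-07).

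The other cytosolic enzymes that fell with ILA did so by less. Synthetases fall into 2 structural classes with unrelated catalytic folds, and Eprs, which holds 1 enzyme of each, is counted in neither. Nars (log2 −0.54), Rars (−0.54), Tars (−0.46), Eprs (−0.44), Farsa (−0.40) and Lars (−0.40) came next, then Kars (−0.30), Iars (−0.29) and Sars (−0.22). Vars, Yars, Aars and Cars fell least, between −0.18 and −0.16, with groups that still did not overlap. Class I enzymes, among them Wars and Rars, fell in 7 of 8 (median −0.24), and class II enzymes, among them Hars and Gars, fell in 9 of 10 (median −0.43). Of the 7 enzymes bound in the multi-synthetase complex (Dars, Eprs, Iars, Kars, Lars, Qars and Rars), 5 fell. All 12 free cytosolic enzymes fell. Gars and Kars, which supply mitochondria as well, both fell. Qars and Dars, the pair that did not fall, belong to the complex and are described because they are the exceptions. Qars, for glutamine, had 29.1, 29.0 and 29.6 FPKM with ILA, against 26.2, 26.9 and 26.6 FPKM with vehicle. Its rise was small but without overlap (log2 0.13, SE 0.04, limma adjusted p = 0.0101), and centring each library on its median turned it to −0.0026. Dars had 19.7, 20.2 and 20.9 FPKM with ILA, against 19.6, 20.2 and 19.4 FPKM with vehicle, groups that overlap.

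Mitochondrial synthetases moved in both directions with ILA, and 9 of the 16 did not pass. Vars2, Cars2, Mars2, Wars2, Aars2 and Tars2 rose and Yars2 fell, against 33.9% and 24.0% of all tested genes. The median log2 fold change was 0.07, close to the 0.06 of all genes. Vars2, for valine (ENSMUSG00000038838, chromosome 17, 35655634 to 35667592), had 4.16, 3.87 and 4.67 FPKM with ILA, against 2.86, 2.98 and 2.82 FPKM with vehicle. All ILA libraries stood above all vehicle ones (1.34-fold, log2 0.43, SE 0.08, limma adjusted p = 0.000665). An antisense gene, Gm20483, overlaps 4734 bases of Vars2 and averaged 3.07 ± 1.09 FPKM with ILA and 2.02 ± 0.819 FPKM with vehicle. Whether reads were counted by strand is not stated for these files, so reads of the 2 genes may not have been told apart. Cars2, for cysteine (ENSMUSG00000056228, chromosome 8, 11513977 to 11550783), had 3.31, 4.08 and 3.77 FPKM with ILA, against 2.61, 2.53 and 2.60 FPKM with vehicle. It rose 1.32-fold, with groups that stood apart (limma adjusted p = 0.000502). Naxd, on the opposite strand, overlaps 984 bases of Cars2. It averaged 11.5 ± 0.743 FPKM in ILA cells, against 10.6 ± 0.109 in vehicle cells. Reads of Cars2 and Naxd, too, may not have been told apart. Mars2, for methionine (ENSMUSG00000046994, chromosome 1, 55237177 to 55248470), had 3.11, 2.83 and 3.35 FPKM with ILA, against 2.70, 2.14 and 2.37 FPKM with vehicle. The groups were close but did not overlap, and it rose 1.21-fold (limma adjusted p = 0.0193).

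Yars2, for tyrosine (ENSMUSG00000022792, chromosome 16, 16302965 to 16309640), was the mitochondrial enzyme that fell. It had 6.08, 6.42 and 6.43 FPKM with ILA, against 8.21, 8.67 and 9.49 FPKM with vehicle. The ILA libraries lay tightly together below all vehicle libraries (1.34-fold lower, log2 −0.42, SE 0.10, limma adjusted p = 0.00317). Wars2, Aars2 and Tars2 rose by 0.24, 0.20 and 0.17 on the log2 scale. The rises rest partly on scaling. Centring each library on its median moved the median log2 fold change of all genes under ILA to −0.07, and 2 mitochondrial enzymes then rose and 3 fell. With quantile normalization 2 rose and 2 fell, whereas 17 cytosolic enzymes fell under either scaling. Without vehicle replicate 2, or without ILA replicate 3, 4 mitochondrial enzymes passed in place of 7.

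Of 19 markers of B, CD8 T, NK, myeloid, erythroid, platelet and stromal cells, 16 were in the files. Their summed level was 17.2 to 36.0 FPKM with ILA, 12.4 to 13.7 with GSK805, 13.6 to 14.2 with both and 14.1 to 16.9 with vehicle. The endothelial and leukocyte gene Pecam1 stood at 10.6 FPKM in ILA cells, against 4.44 FPKM in vehicle cells. Cd8b1 stood at 1.27 FPKM in ILA cells, against 4.06 FPKM in vehicle cells, and 1 ILA library held 18.2 FPKM of the haemoglobin gene Hba-a1. With ILA 11 of the 16 were under 1 FPKM on average and Pf4 of platelets was listed at 0, and in each other group 12 were under 1 FPKM. The part of other cells in the synthetase values was not tested. Without ILA replicate 1, 2 or 3 in turn, 17 cytosolic enzymes fell each time.

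**Figure D2:**
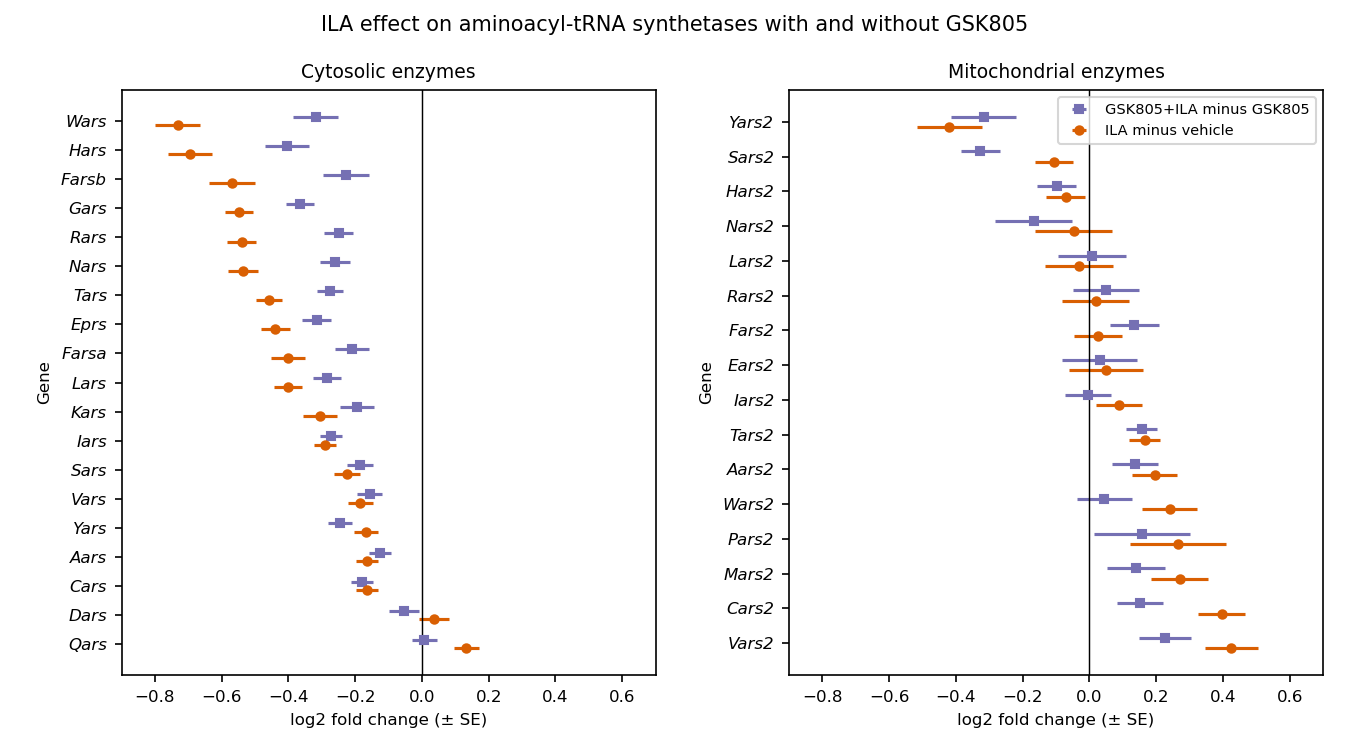
Log2 fold change ± SE of each synthetase with ILA, with GSK805 (GSK805+ILA minus GSK805, squares) and without it (ILA minus vehicle, circles). Nearly all cytosolic enzymes lie left of 0 under both conditions, from −0.73 for Wars to 0.13 for Qars without GSK805, and most squares lie nearer to 0 than their circles.

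Summed over each class, the cytosolic enzymes were lower with ILA and the mitochondrial ones slightly higher, both without overlap with vehicle. The cytosolic sum was 1035 ± 23.4 FPKM with ILA, 1304 ± 45.1 with GSK805, 1092 ± 20.5 with both and 1361 ± 23.7 with vehicle (SD, n = 3 each). The mitochondrial sum was 79.9 ± 1.35 FPKM with ILA, 82.3 ± 2.67 with GSK805, 82.4 ± 1.86 with both and 76.1 ± 1.82 with vehicle. The cytosolic sum was therefore 13.0 ± 0.264 times the mitochondrial one with ILA, 15.8 ± 0.565 with GSK805, 13.2 ± 0.238 with both and 17.9 ± 0.694 with vehicle. The libraries of each treated group lay below all vehicle libraries in this ratio, at 12.7 to 13.2 with ILA, 15.3 to 16.4 with GSK805, 13.0 to 13.5 with both and 17.3 to 18.7 with vehicle. Abundant genes such as Gars, Nars and Iars weigh most in such sums.

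**Figure D3:**
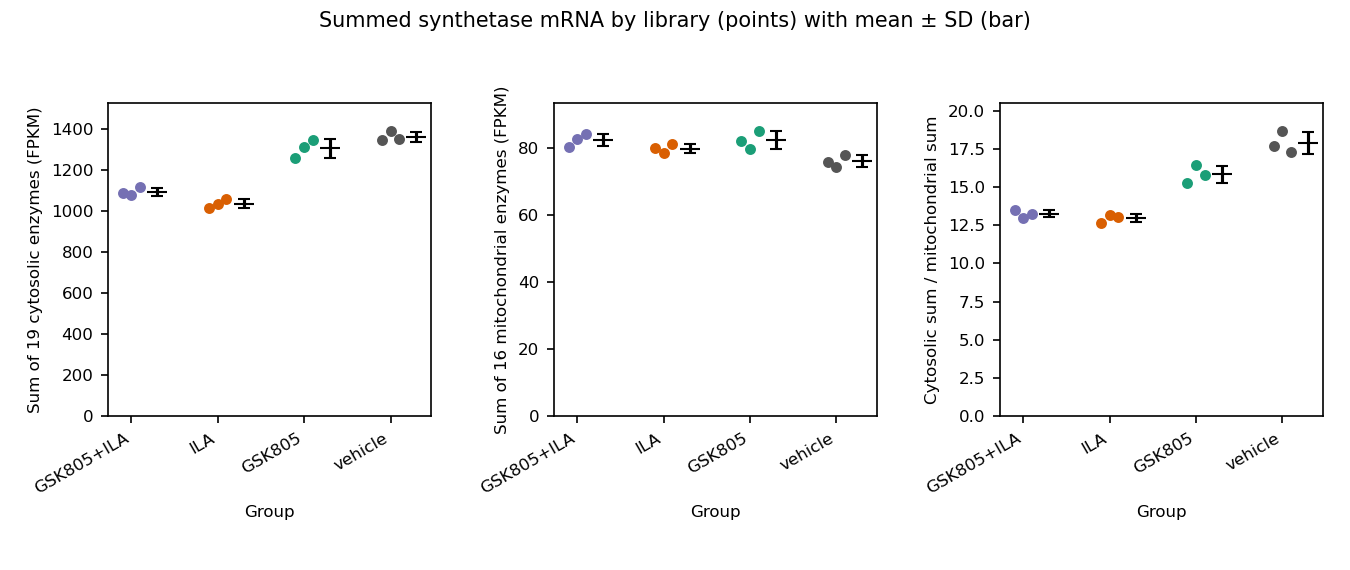
Summed FPKM of the 19 cytosolic and of the 16 mitochondrial synthetases, and the ratio of the sums, by group; points are libraries and bars the mean ± SD of 3. The cytosolic sums with ILA and with both compounds, at 1035 and 1092 FPKM, lie below those with GSK805 and vehicle, at 1304 and 1361 FPKM, and the mitochondrial sums span 74.4 to 85.1 FPKM.

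The balance within single amino acids went the same way. Pairs were matched by symbol, which gave a cytosolic partner to 13 mitochondrial enzymes, in 14 pairs since Fars2 has 2 partners. Eprs, which serves both glutamate and proline, was not set against Ears2 or Pars2. With ILA the cytosolic to mitochondrial ratio was lower on average than with vehicle in 13 of the 14 pairs, without overlap in 11. The median difference of the log2 ratio was −0.52, the lowest −1.09 and the highest 0.30. For tryptophan, Wars was 11.3 ± 1.84 times Wars2 with ILA, 20.0 ± 1.33 times with GSK805, 15.4 ± 2.36 times with both and 23.9 ± 2.17 times with vehicle. Here both members moved, Wars down and Wars2 up, and the ratio changed most of all pairs. For histidine, Hars was 3.70 ± 0.0481 times Hars2 with ILA, 4.92 ± 0.394 with GSK805, 3.98 ± 0.198 with both and 5.74 ± 0.292 with vehicle. Hars and Hars2 lie on opposite strands of chromosome 18, with start sites 197 bases apart, and overlap by 198 bases. Whether reads were counted by strand is not stated, so reads of this overlap may not have been told apart. Only Hars passed the test with ILA (Hars2 log2 −0.07, SE 0.06), and whether the 2 changes differ was not tested. For tyrosine the ratio went the other way, at 7.03 ± 0.190 with ILA, 4.96 ± 0.830 with GSK805, 5.26 ± 0.142 with both and 5.70 ± 0.401 with vehicle, since Yars2 fell by more than Yars. The lower ratio was not particular to ILA. With GSK805 alone it was lower on average in 10 of the 14 pairs, without overlap in 8 (median difference −0.15). With both compounds it was lower in 13, without overlap in 11 (median difference −0.43). Ratios of other gene pairs were not computed. All 3 sets of differences share the vehicle libraries.

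**Figure D4:**
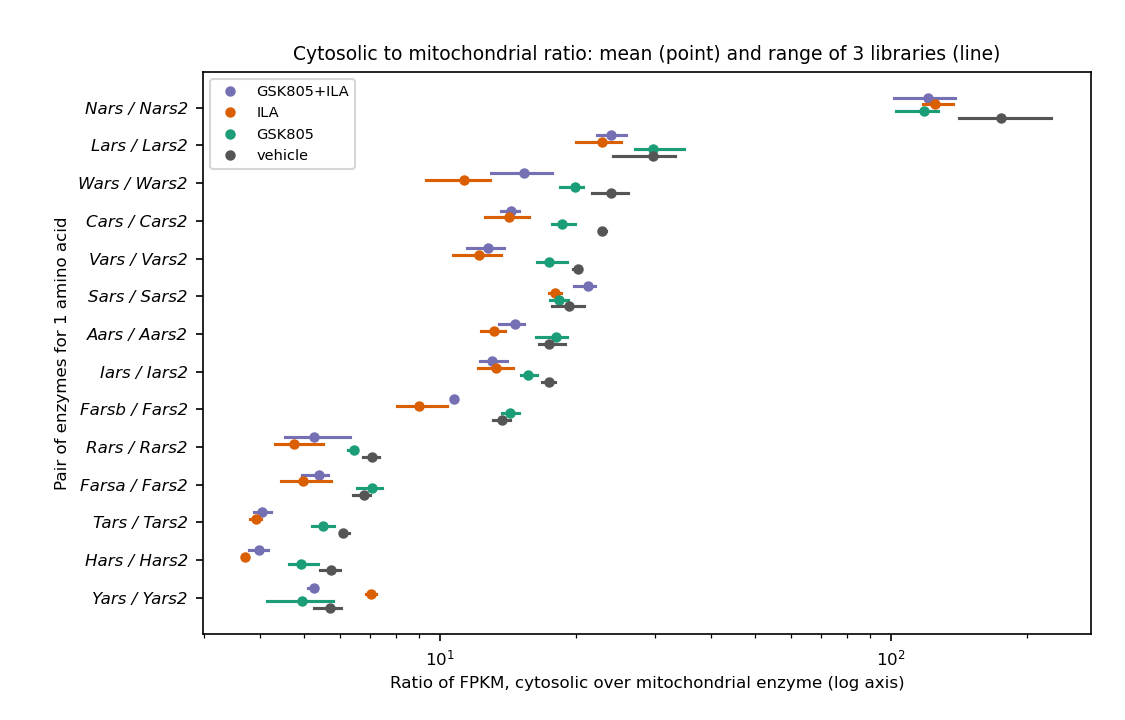
Ratio of the cytosolic over the mitochondrial enzyme's FPKM for the 14 pairs matched by symbol, which leave out Eprs, on a log axis. Points are group means and lines the range of 3 libraries. With ILA the ratio was lower than with vehicle in 13 pairs, and Yars over Yars2 is the exception at 7.03 against 5.70.

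GSK805 alone changed few synthetases. Against vehicle, 1 cytosolic enzyme rose, 1 fell and 17 did not pass, and 1 mitochondrial enzyme rose and 15 did not pass, where 22.8% of all tested genes passed, 15.7% with a rise and 7.08% with a fall (2119 and 957 genes, against 1112 and 1648 with median centring). The groups stood apart in 5 of the 19 cytosolic and 5 of the 16 mitochondrial enzymes, against 38.7% of all genes. With median centring 6 cytosolic enzymes fell and 0 rose. The median log2 fold changes were −0.05 and 0.10, against 0.05 over all genes. Nars (ENSMUSG00000024587, chromosome 18, 64499647 to 64516652) had 173, 184 and 192 FPKM with GSK805, against 204, 209 and 207 FPKM with vehicle. The groups did not overlap, and it fell by 0.18 on the log2 scale (SE 0.04, limma adjusted p = 0.0153). The call was lost with quantile normalization (−0.02) and without GSK805 replicate 1. Dars (ENSMUSG00000026356, chromosome 1, 128363707 to 128417368) had 21.7, 22.8 and 22.8 FPKM with GSK805, against 19.6, 20.2 and 19.4 FPKM with vehicle. It rose 1.13-fold without overlap (limma adjusted p = 0.0165), a call lost with quantile normalization, with median centring and without vehicle replicate 3 or GSK805 replicate 2 or 3. Cars2 had 3.33, 3.12 and 3.05 FPKM with GSK805, against 2.61, 2.53 and 2.60 FPKM with vehicle. The groups stood apart (limma adjusted p = 0.0449), but this call was lost in 15 of 20 other settings. Wars, the enzyme most changed by ILA, had 41.7, 44.7 and 48.7 FPKM with GSK805, below its vehicle libraries but not past the test (log2 −0.20, SE 0.07, limma adjusted p = 0.0556).

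GSK805 and ILA together again lowered the cytosolic class. Against vehicle 17 of 19 fell, Dars rose and Qars did not pass, where 52.1% of all tested genes passed, 20.3% with a fall and 31.8% with a rise (2738 and 4295 genes, against 4437 and 2985 with median centring). The groups did not overlap in 17 of the 19, against 59.2% of all genes. The median log2 fold change was −0.27, against 0.06 over all genes. Wars had 35.3, 34.0 and 38.5 FPKM with both compounds, 1.43-fold below its vehicle libraries (limma adjusted p = 6.65e-05). Hars had 46.2, 47.7 and 50.7 FPKM with both and was 1.42-fold lower (limma adjusted p = 6.60e-05). Gars had 153, 153 and 157 FPKM with both and was 1.40-fold lower (limma adjusted p = 2.41e-06). In these 3 genes the libraries that received both compounds fell between those of ILA and vehicle as means, and none reached a vehicle library. Nars had 149, 148 and 161 FPKM with both, also apart from vehicle and 1.35-fold lower (limma adjusted p = 8.99e-06). Kars fell as well, with 37.2, 40.2 and 42.3 FPKM with both against 41.9, 44.2 and 45.4 FPKM with vehicle, groups that overlap. Its call was lost in 11 of 21 other settings, and that of Vars, the smallest fall, in 12 of 21. Dars had 22.8, 20.4 and 21.6 FPKM with both. Its rise of 0.12 (limma adjusted p = 0.0393) was lost in 13 of 21 other settings and turned to −0.016 with median centring.

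Among mitochondrial enzymes Vars2, Cars2, Mars2 and Tars2 rose with both compounds, Sars2 fell and 11 did not pass. Of all tested genes 52.1% passed against vehicle, 31.8% with a rise and 20.3% with a fall. Vars2 had 4.76, 4.12 and 3.94 FPKM with both compounds, 1.35-fold above vehicle (limma adjusted p = 0.000668). Cars2 had 3.71, 3.49 and 3.68 FPKM with both, 1.29-fold above vehicle (limma adjusted p = 0.000980). Both pairs of groups were apart, as they were with ILA alone. Mars2 had 3.38, 2.72 and 3.10 FPKM with both (1.19-fold, limma adjusted p = 0.0273). Its lowest library barely cleared the highest vehicle library, at 2.70 FPKM. Sars2, for serine (ENSMUSG00000070699, chromosome 7, 28741992 to 28753871), had 3.94, 4.29 and 4.02 FPKM with both, against 5.60, 5.16 and 5.20 FPKM with vehicle. It was 1.24-fold lower without overlap (log2 −0.31, SE 0.06, limma adjusted p = 0.000814), while ILA alone gave 4.90, 5.15 and 4.57 FPKM and did not pass (log2 −0.11, SE 0.06). With median centring 2 mitochondrial enzymes rose and 2 fell.

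The effect of ILA was also present where GSK805 had been given. Comparing both compounds with GSK805 alone, which uses no vehicle library, 17 of 19 cytosolic enzymes fell, 0 rose, and Dars and Qars did not pass, where 39.5% of all tested genes passed, 17.5% with a fall and 22.0% with a rise (2363 and 2968 genes, against 3317 and 2362 with median centring). The median log2 fold change was −0.25, against 0.02 over all genes, and the 17 groups did not overlap (52.1% of all genes). Hars had 46.2, 47.7 and 50.7 FPKM with both compounds, against 60.1, 62.9 and 69.5 FPKM with GSK805. It was 1.32-fold lower (log2 −0.40, SE 0.07, limma adjusted p = 0.000553). Gars had 153, 153 and 157 FPKM with both, against 191, 203 and 203 FPKM with GSK805 (1.29-fold lower, limma adjusted p = 4.33e-05). Both pairs of groups were apart. Wars had 35.3, 34.0 and 38.5 FPKM with both, against 41.7, 44.7 and 48.7 FPKM with GSK805 (1.25-fold lower, limma adjusted p = 0.00322). Eprs had 24.5, 24.5 and 24.4 FPKM with both, against 29.7, 30.4 and 32.0 FPKM with GSK805 (1.24-fold lower, limma adjusted p = 0.000189). The 3 Eprs libraries with both compounds were nearly equal.

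In the same comparison Tars2 and Vars2 rose, Sars2 and Yars2 fell and 12 mitochondrial enzymes did not pass. Of all tested genes 39.5% passed here, 22.0% with a rise and 17.5% with a fall. Sars2 had 3.94, 4.29 and 4.02 FPKM with both, against 5.49, 5.38 and 5.24 FPKM with GSK805 (1.25-fold lower, limma adjusted p = 0.000990). Yars2 had 7.66, 8.06 and 7.80 FPKM with both, against 9.70, 8.49 and 12.1 FPKM with GSK805 (1.25-fold lower, limma adjusted p = 0.0237). The Yars2 groups did not overlap, but GSK805 replicate 3 stood well above the other 2. Vars2 had 4.76, 4.12 and 3.94 FPKM with both, against 3.54, 3.68 and 3.29 FPKM with GSK805 (1.17-fold, limma adjusted p = 0.0398). Tars2 had 14.4, 13.9 and 13.4 FPKM with both, against 12.2, 11.9 and 12.9 FPKM with GSK805 (1.11-fold, limma adjusted p = 0.0199). Neither rise passed with median centring. The Vars2 call was lost in 12 of 20 other settings and that of Tars2 in 5 of 21. Without GSK805+ILA replicate 1 the 4 calls became 1, and without any 1 GSK805 library, or without GSK805+ILA replicate 2, they became 2.

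For 5 cytosolic enzymes the effect of ILA was smaller in the presence of GSK805, by a test of the difference itself. The interaction (the ILA effect with GSK805 minus the one without) was above 0 in Wars, Farsb, Rars, Nars and Tars and below 0 in none of the 19, where 13.8% of all tested genes were called, 5.15% above and 8.70% below (696 and 1175 genes, against 1289 and 750 with median centring). Its median over the cytosolic enzymes was 0.12, against −0.05 over all genes. In Wars the ILA effect was log2 −0.32 with GSK805 and −0.73 without it, an interaction of 0.41 (SE 0.10, limma adjusted p = 0.0174). In Farsb it was −0.23 with GSK805 and −0.57 without it, an interaction of 0.34 (SE 0.10, limma adjusted p = 0.0417). Rars, for arginine (ENSMUSG00000018848, chromosome 11, 35808381 to 35834506), had 34.7, 34.3 and 35.4 FPKM with both compounds, 30.7, 32.1 and 30.2 FPKM with ILA, 39.4, 42.0 and 43.4 FPKM with GSK805 and 46.8, 43.4 and 46.3 FPKM with vehicle. The 4 groups do not overlap, though the highest GSK805 library lay just under the lowest vehicle library, and the interaction was 0.29 (SE 0.06, limma adjusted p = 0.0126). In Nars the interaction was 0.27 (SE 0.06, limma adjusted p = 0.0162). Tars, for threonine (ENSMUSG00000022241, chromosome 15, 11382301 to 11399665), had 57.8, 53.7 and 56.7 FPKM with both, 49.6, 51.2 and 51.9 FPKM with ILA, 67.1, 69.4 and 67.4 FPKM with GSK805 and 68.0, 72.6 and 70.3 FPKM with vehicle. Its libraries split into ILA-treated and untreated ones without overlap, and the interaction was 0.18 (SE 0.05, limma adjusted p = 0.0461). The Rars call passed in all 20 other settings, those of Nars and Wars in all but 1 each, and those of Farsb and Tars were lost in 12 and 14. In the mitochondrial class limma called 0 of 16 interactions, with 2 at an unadjusted p under 0.05 and 0 by voom on recovered reads.

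**Figure D5:**
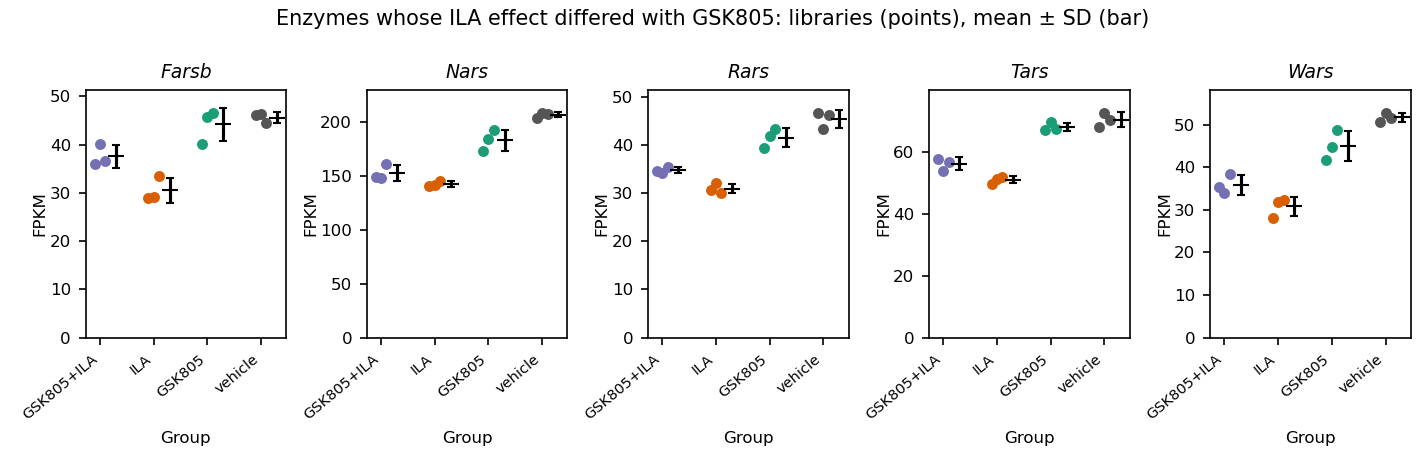
FPKM of the 5 synthetases whose ILA effect differed with GSK805, by group; points are libraries and bars the mean ± SD of 3. In each panel the GSK805+ILA mean lies above the ILA mean and below the GSK805 mean, as in Wars at 35.9 FPKM with both compounds, 30.8 with ILA, 45.1 with GSK805 and 51.8 with vehicle.

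Set directly against ILA alone, both compounds gave 5 cytosolic enzymes that were higher, 0 that were lower and 14 that did not pass, where 18.6% of all tested genes passed, 9.92% with a rise and 8.64% with a fall. Farsb had 35.9, 40.2 and 36.5 FPKM with both, against 28.9, 29.2 and 33.5 FPKM with ILA (1.22-fold, limma adjusted p = 0.0142). Wars was 1.16-fold higher (limma adjusted p = 0.0476) and Kars, with 37.2, 40.2 and 42.3 FPKM against 33.9, 35.3 and 36.7 FPKM with ILA, was 1.13-fold higher (limma adjusted p = 0.0374). Rars and Tars were higher by 0.16 and 0.14 on the log2 scale. All 5 pairs of groups stood apart, as 37.2% of all genes did in this comparison, yet none of these calls passed in every other setting: without ILA replicate 1 there were 0, with 13 cytosolic enzymes at an unadjusted p under 0.05 in the full data and 8 called by voom. Without ILA replicate 2 or GSK805+ILA replicate 3 there was 1, without GSK805+ILA replicate 1 there were 2, and without GSK805 replicate 2 there were 3. Sars2, with 3.94, 4.29 and 4.02 FPKM with both against 4.90, 5.15 and 4.57 FPKM with ILA, was the mitochondrial enzyme that fell (1.16-fold lower, limma adjusted p = 0.0289).

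Partners of the synthetases were read from lists chosen for their role, with earlier results of these data known. Of the scaffold proteins of the multi-synthetase complex, Eef1e1 and Aimp2 fell with ILA and Aimp1 did not pass. With GSK805 alone Aimp1 fell (log2 −0.18) and Eef1e1 and Aimp2 did not pass. Eef1e1 averaged 14.7 ± 1.03 FPKM with ILA and 24.8 ± 0.657 with vehicle (log2 −0.72, limma adjusted p = 3.20e-06). With both compounds it was at 19.0 ± 1.42 FPKM, and its interaction of 0.51 passed. Xpot, which exports transfer RNA from the nucleus, averaged 61.3 ± 2.08 FPKM with ILA and 78.4 ± 2.01 with vehicle and fell (log2 −0.35, limma adjusted p = 2.80e-05). Of the 4 tested genes of its list, which also holds proofreading enzymes that clear wrongly charged transfer RNA, Dtd2 rose and the other 2 did not pass. Dtd2 averaged 1.54 ± 0.308 FPKM with ILA and 0.988 ± 0.221 with vehicle (log2 0.35, limma adjusted p = 0.0275). Tarsl2, a second cytosolic threonyl enzyme of low level, fell (log2 −0.48). Elongation factors carry charged transfer RNA to the ribosome or move it along. Of 5 tested, Eef1g, Eef1b2, Eef1d and Eef1a1 fell with ILA, between −0.27 and −0.10, where 24.0% of all tested genes fell. Eef2, the translocation factor, rose to 1898 ± 26.1 FPKM with ILA, against 1416 ± 39.0 with vehicle (log2 0.42, limma adjusted p = 2.15e-07). The falls were not particular to ILA. With GSK805 alone Eef1b2, Eef1a1, Eef1g and Eef2 fell (log2 −0.37, −0.23, −0.18 and −0.10) and Eef1d did not pass, where 7.08% of all tested genes fell. On the mitochondrial side the subunits of the glutaminyl-tRNA amidotransferase (Gatb, Gatc, Qrsl1) and the formylase Mtfmt did not pass in any of the comparisons, 0 of 4 each. Of 8 mitochondrial translation factors, Gfm2, Mtif2 and Mtif3 rose with ILA by 0.32, 0.23 and 0.14 and the other 5 did not pass, a share of rises close to the 33.9% of all tested genes.

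Genes of the ATF4 response and of amino acid supply fell with ILA beside the cytosolic enzymes. Their list, too, was chosen with earlier results of these data known. Of 23 tested, 20 fell, Slc3a2 rose, and Trib3 and Gpt2 did not pass (median log2 fold change −0.42, against 0.06 over all genes, of which 24.0% fell). Cth, which makes cysteine from cystathionine, averaged 3.09 ± 0.634 FPKM with ILA and 22.1 ± 0.990 with vehicle (log2 −2.50). Slc7a3, a transporter of cationic amino acids, was at 3.08 ± 0.245 FPKM with ILA and 12.9 ± 0.264 with vehicle (log2 −1.77), and Slc1a5, a glutamine transporter, fell by 1.07 on the log2 scale. Atf4 itself averaged 402 ± 12.3 FPKM with ILA and 505 ± 12.9 with vehicle (log2 −0.33, limma adjusted p = 4.91e-06). With GSK805 alone 7 of the 23 fell and 0 rose, where 7.08% of all tested genes fell. With both compounds 19 fell against vehicle, where 20.3% of all genes fell, and 20 against GSK805, where 17.5% did. Among 8 tested sensors and phosphatases of eIF2, 5 fell with ILA, against 24.0% of all genes, Eif2ak2 rose and 2 did not pass. Ppp1r15a, the stress-induced subunit that directs eIF2 dephosphorylation, fell by 1.02 on the log2 scale, and Eif2ak3, the kinase PERK of the endoplasmic reticulum, fell by 0.54. Eif2ak4, the kinase GCN2 that binds uncharged transfer RNA, did not pass (log2 −0.15, SE 0.07). Eif2ak2, the kinase PKR, was at 2.33 ± 0.133 FPKM with ILA and 1.13 ± 0.358 with vehicle (log2 0.65).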

How the data were processed

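Gene expression was read from the authors' deposited FPKM table of each library. The submitters' processing notes name FastQC 0.11.2, Bowtie and the mm10 build, with no role given, and the counting program, annotation and use of strand are not named in any source used here. Symbols, positions and exon lengths came from GENCODE vM21 (GRCm38), and FPKM times exon length gave values within 0.1 of a whole read for 98.1% to 98.7% of values. Genes with a mean of 1 FPKM in at least 1 group were tested with limma 3.58.1 in R 4.3.3 on log2(FPKM + 1), with trend and robust moderation and 1 mean per group over all 12 libraries. A fold change is on that scale and understates the change of low genes. Adjusted p-values are Benjamini-Hochberg values over all 13511 genes, called below 0.05. The procedure was tested on simulated data. Libraries were grouped by the labelled treatment. Alternatives were other scalings, filters, a pseudocount of 0.1, a replicate block, leaving out each library, and voom on the recovered reads, the last chosen after seeing the data. Per-library values are given for up to 4 cytosolic and 4 mitochondrial enzymes per comparison with the largest called changes and groups that do not overlap, and for every called interaction; Qars, Dars, Kars with both compounds, Wars with GSK805 and genes given by fold change alone were named after their values were seen. The members and lists were chosen with earlier results of these data known.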

Additional observations from a re-analysis of the deposited data

Results flagged for a closer look

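For 5 cytosolic enzymes the ILA effect with GSK805 differed from the ILA effect without it, by the interaction term in limma with Benjamini-Hochberg adjustment over all genes. The difference was 0.41 on the log2 scale in Wars (adjusted p = 0.0174, 0.000189 to 0.0507 over the other settings), 0.34 in Farsb (adjusted p = 0.0417, 0.00277 to 0.108), 0.29 in Rars (adjusted p = 0.0126, 0.00313 to 0.0346), 0.27 in Nars (adjusted p = 0.0162, 0.000357 to 0.113) and 0.18 in Tars (adjusted p = 0.0461, 0.0143 to 0.11). In each of the 5 the fall with ILA was smaller where GSK805 was present. The groups hold 3 libraries each, too few to test a single library as an extreme value.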

How the results depend on the processing

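With ILA against vehicle, 17 cytosolic enzymes fell in every setting run, and 18 were called whichever library was left out. The 7 mitochondrial calls became 4 with quantile normalization (2 higher, 2 lower), 2 with a filter at 5 FPKM, which left 6 enzymes, and 4 to 7 with 1 library left out. With GSK805 against vehicle, the 2 cytosolic calls became 1 with quantile normalization, 6 with median centring, 4 with the filter at 5 FPKM, 5 with voom, and 1 to 3 with 1 library left out, 1 without vehicle replicate 3 or GSK805 replicate 1 or 2. The 1 mitochondrial call became 0 with quantile normalization, median centring, no filter, the filter at 5 FPKM or only the groups compared, 2 with voom, and 0 to 1 with 1 library left out; limma gave 3 at an unadjusted p under 0.05. It was 0 without any 1 vehicle, GSK805 or GSK805+ILA library or without ILA replicate 3. With both compounds against vehicle, the 5 mitochondrial calls became 2 with the filter at 5 FPKM. Against GSK805, the 4 mitochondrial calls became 2 with median centring, no filter or only the groups compared, and 1 to 4 with 1 library left out. Against ILA, the 5 cytosolic calls became 2 without trend and robust moderation, 3 with median centring or only the groups compared, 1 with no filter, 8 with voom, and 0 to 6 with 1 library left out; quantile normalization gave 3 higher and 2 lower. The 1 mitochondrial call became 0 with no filter and 0 to 2 with 1 library left out, 0 without ILA replicate 1 or 2 or GSK805+ILA replicate 1 or 3 and 2 without GSK805 replicate 2 or 3; voom and the groups compared alone each called 1 in the other direction. The 5 cytosolic interactions became 3 without trend and robust moderation, 2 with quantile normalization or no filter, 10 with median centring, and 3 to 6 with 1 library left out, 3 without vehicle replicate 2 or 3, ILA replicate 1 or 2, GSK805 replicate 1 or 2 or GSK805+ILA replicate 3. Median centring turned Qars to −0.0026 with ILA and to −0.10 with both compounds, and Dars to −0.016 with both, against vehicle. The cause of these moves was not tested, except that filters change how many genes are tested.

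Deviations from the group means correlated at −0.082 to 0.078 between libraries of the same replicate number (18 correlations). Between libraries of different numbers they correlated at −0.064 to 0.080 (36 correlations). These values cannot decide whether the numbers pair the samples, because no label ties a replicate to an animal or culture. A fit with replicate block gave 4 cytosolic and 0 mitochondrial calls with GSK805 in place of 2 and 1, and moved no other count by over 1.5 times. Mitochondrial enzymes, with as few as 103 reads in a library, are measured less precisely than cytosolic ones.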
